A study of Mus musculus with 21 samples.

Results

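Transcripts of 10 genes that encode secreted or secretory-granule proteins of neurons were compared in the neocortex of rNLS8 and control mice. The genes were Bdnf, Vgf, Nptx1, Nptx2, Nptxr, Scg2, Scg3, Chga, Chgb and Pcsk1. They were picked by symbol from the 48474 entries of a bulk RNAseq count table, by a rule that uses no measured value, though with earlier results of these data known. All 10 were found, each as a single entry, and all 10 were among the 19052 genes expressed highly enough to be tested. Together they made up between 0.126% and 0.179% of the counts of a mouse.

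When neurons fire, calcium entry activates transcription factors such as CREB, and genes with a CREB binding site, the cAMP response element (CRE), are among their targets. Several of these genes encode proteins that neurons release. BDNF is a growth factor that signals through the receptor TrkB. VGF and the granins (chromogranins and secretogranins) are cargo of dense-core granules, in which the protease PC1/3, the product of Pcsk1, cuts peptide precursors. The neuronal pentraxins NPTX1 and NPTX2 are released at synapses and gather AMPA-type glutamate receptors, and NPTXR is their membrane-anchored relative.

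The rNLS8 line carries human TDP-43 without its nuclear localization signal (TDP-43ΔNLS). Its expression is driven by a tetracycline transactivator under the neurofilament heavy chain promoter, so that the transgene is mainly on in neurons and is kept off by doxycycline. The group labelled WT held 11 mice, which the design text calls monogenic control littermates, and the group labelled TG held 10 rNLS8 mice. Every mouse of both groups had been injected into a cerebral ventricle with a non-targeting antisense oligonucleotide (350 µg in 10 µL) at 17 to 19 weeks of age, and had eaten doxycycline chow at 200 mg/kg until 2 weeks later. The labels name the tissue as neocortex and the methods as cortex, while a legend of the study gives hippocampus for rNLS8 mice. Tissue was taken 3 weeks after doxycycline was withdrawn. The experiment was run as cohort A, with 4 WT and 3 rNLS8 mice, and cohort B, with 7 WT and 7 rNLS8 mice. The labels call this factor batch, and cohort here always means this factor, not the numbered cohorts of the study. The labels do not give the sex of each mouse, and the study did not separate naive rNLS8 mice by sex.

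The depth was 20700912 to 22263809 gene counts per mouse. The counts assigned to the mouse Tardbp gene, which may or may not take up reads of the human transgene, were between 4403 and 5054 normalized counts in the rNLS8 mice of cohort B, above the 2510 to 2829 of their WT mice. In cohort A these were 2362 to 3084 in rNLS8 and 2254 to 2646 in WT mice, so that this gene did not separate the genotypes there. Slc17a7, the vesicular glutamate transporter of cortical projection neurons, was well expressed, with a WT mean of 31941 normalized counts. Normalized counts are the counts of a mouse scaled by its TMM-corrected library size to the average library.

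Of the 10 genes, 6 were lower in rNLS8 mice and 0 were higher (edgeR's quasi-likelihood F-test, genotype and cohort in the model, Benjamini-Hochberg adjusted p below 0.05). These were Nptx2, Nptxr, Chgb, Scg2, Pcsk1 and Nptx1, with log2 fold changes between -0.22 for Nptx1 and -1.12 for Nptx2, or fitted levels of 0.856 and 0.460 of WT. Among all genes tested, 43.6% passed this test, 21.2% as lower and 22.4% as higher, so differences between the genotypes were common in this tissue. This balance depended on the scaling, since scaling by library size only gave 5935 genes as higher and 2797 as lower and moved the median log2 fold change of all genes to 0.08, with 5 of the 10 genes lower and 1 higher. The median log2 fold change of the 10 genes was -0.24, and that of all tested genes was -0.00185. Bdnf and Vgf themselves, and the granins Scg3 and Chga, did not pass the test. Reads came from whole tissue, in which fewer neurons and less RNA per neuron cannot be told apart.

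**Figure D1:**
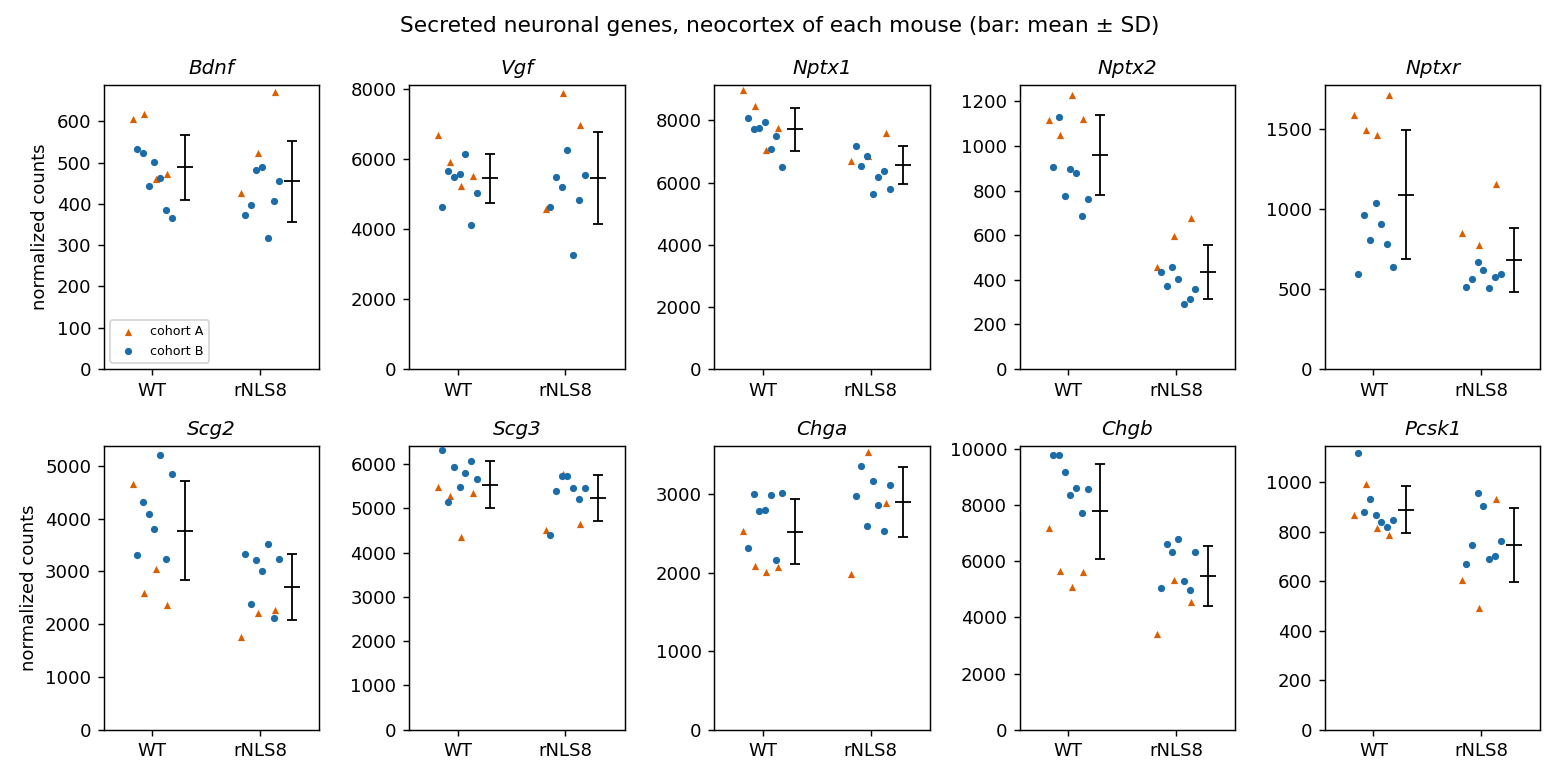
Normalized counts of the 10 genes in the neocortex of each mouse, in WT mice (n = 11) and rNLS8 mice (n = 10). Each point is 1 mouse, orange triangles mark cohort A and blue circles cohort B, and the bar is the mean ± SD. The groups of Nptx2 do not overlap, with rNLS8 mice up to 677.8 and WT mice from 684.5, and the other 9 genes overlap.

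**Figure D2:**
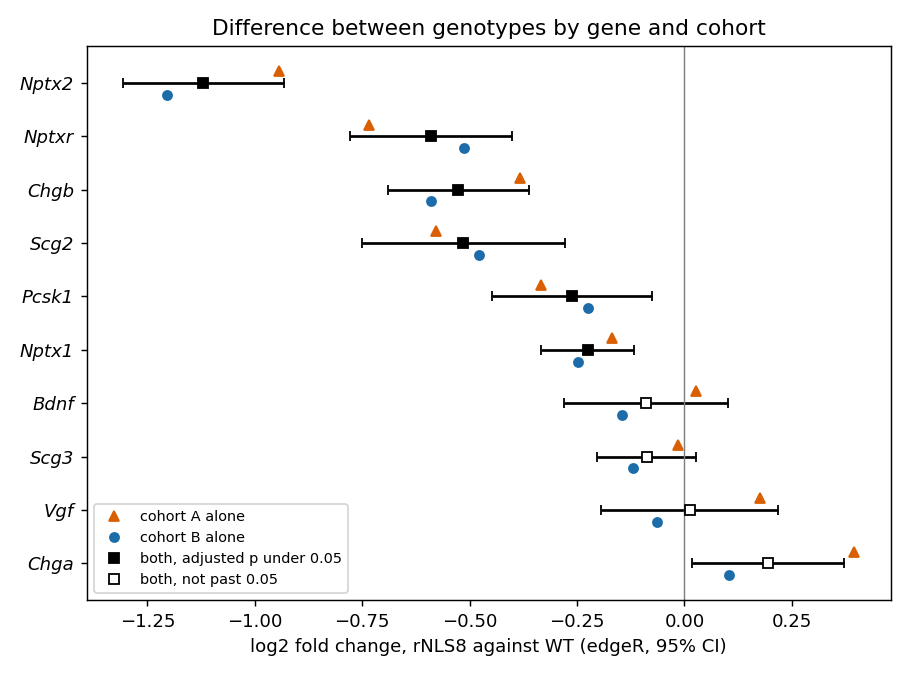
Log2 fold change of each gene between rNLS8 and WT mice. Squares with bars are the estimate over both cohorts with its 95% confidence interval from edgeR, filled where the adjusted p-value was under 0.05, and triangles and circles are the estimates in cohort A alone and cohort B alone. The 6 filled squares all lie left of 0, from -1.12 for Nptx2 to -0.22 for Nptx1.

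The promoters were searched for the CRE, because it is the element through which CREB acts. They were also searched for an AP-1 site (TGANTCA, with N for any base) and the left part of the RE1 element (TTCAGCACC). Further searches were for an EGR site (GCGTGGGCG) and an E-box (CACGTG). Only the stretches around the CRE are shown here, for comparison with the expression values. RefSeq promoters (GRCm38.p6, 250 bases before to 50 bases after a transcript start) were held for Bdnf, Scg2, Scg3, Chga, Chgb and Pcsk1. Vgf, Nptx1, Nptx2 and Nptxr were not in the promoter table. Each line gives 30 bases on the gene's strand from 5′ to 3′, aligned so that the element takes the same place in each sequence. Capitals mark the complete CRE, TGACGTCA, or its first 5 bases, TGACG (the partial site), which reads CGTCA on the other strand. Both strands were searched, and for these genes a partial site inside a complete CRE was not counted again.
Scg2: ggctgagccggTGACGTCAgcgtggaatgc
Chgb: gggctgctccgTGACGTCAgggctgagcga
Pcsk1: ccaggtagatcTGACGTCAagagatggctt
Chga: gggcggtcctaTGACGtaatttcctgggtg
Scg3: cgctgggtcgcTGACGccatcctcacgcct
Bdnf, promoter 3: catatgacagctcaCGTCAaggcagcgtgg

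The complete CRE was found in the promoters of Scg2 (chr1:79440076-79440105, minus strand), Chgb (chr2:132781559-132781588, plus strand) and Pcsk1 (chr13:75089768-75089797, plus strand). Its first base lay 68, 72 and 78 bases before the RefSeq start of the 3 genes. GENCODE places the transcript starts of Scg2 and Chgb further upstream, so that by this annotation the element of both lies within an exon, whereas that of Pcsk1 lies before the gene. Only a partial site was found for Chga (chr12:102554886-102554915, plus strand), Scg3 (chr9:75684068-75684097, minus strand) and Bdnf (chr2:109692387-109692416, plus strand). Bdnf had 7 promoters in the table, and the other 6 held neither form of the element. Of all 32851 RefSeq mouse promoters, 1.79% held the complete CRE and 20.8% held the partial site, which was here also counted inside a complete CRE. Of the other sites searched, Bdnf promoter 2 held an AP-1 site 152 bases before the start. Scg2 held the RE1 part on the other strand, 7 bases before the start. Among all promoters, 7.81% held the AP-1 site and 0.371% the RE1 part. No EGR site or E-box was found in the promoters of these genes. The 3 genes with a complete CRE were among those lower in rNLS8 mice, whereas Chga, Scg3 and Bdnf did not pass the test. Nptx2, Nptxr and Nptx1, which were also lower, had no promoter to search. Whether the CRE or the other sites have a part in these differences was not tested. Over all 419 tested genes with a complete CRE in a RefSeq promoter, 29.4% were lower and 24.3% higher in rNLS8 mice, with a median log2 fold change of -0.03, beside 21.6% lower and 22.9% higher among the 13166 tested genes with any RefSeq promoter. A match of letters does not show that a factor binds there.

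Longer upstream stretches are given for 3 genes, as far as they lay outside GENCODE exons of the gene. That of Pcsk1 (chr13:75089707-75089825, plus strand), trimmed by 31 exon bases at its 3′ end, is shown because it holds the complete CRE and, at 50 bases before the start, a further partial site. Those of Chga (chr12:102554791-102554940, plus strand) and of Bdnf promoter 3 (chr2:109692286-109692435, plus strand) are shown as the counterpart with a partial site only. Capitals again mark the element.
Pcsk1: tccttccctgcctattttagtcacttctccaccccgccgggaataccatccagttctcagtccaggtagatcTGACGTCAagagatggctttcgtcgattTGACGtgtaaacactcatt
Chga: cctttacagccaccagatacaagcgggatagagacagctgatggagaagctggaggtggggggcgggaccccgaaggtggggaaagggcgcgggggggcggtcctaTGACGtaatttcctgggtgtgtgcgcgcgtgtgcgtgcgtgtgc
Bdnf, promoter 3: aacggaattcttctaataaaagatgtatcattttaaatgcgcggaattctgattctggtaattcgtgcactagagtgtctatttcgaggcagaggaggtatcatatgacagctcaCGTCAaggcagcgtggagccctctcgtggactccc

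The pentraxin Nptx2, which is strongly regulated by neuronal activity, had the largest difference of the 10 genes. WT mice had between 684.5 and 1227 normalized counts with a median of 905.0, and rNLS8 mice had between 291.2 and 677.8 with a median of 418.8. All 10 rNLS8 mice lay below all 11 WT mice, which was the case for 3.67% of all genes tested. The mean was 959.0 ± 179 (SD, n = 11) in WT and 436.4 ± 121 (SD, n = 10) in rNLS8 mice, and the log2 fold change was -1.12 (standard error, SE, of 0.091, edgeR adjusted p = 5.63e-10). The cohort A values were 459.1, 594.7 and 677.8 in rNLS8 against 1118, 1051, 1227 and 1121 normalized counts in WT mice. The log2 fold change was -0.94 when cohort A was fitted by itself (adjusted p = 0.00167) and -1.20 for cohort B (edgeR adjusted p = 1.01e-07). Nptx2 lies on chromosome 5 of GRCm38 from 144545902 to 144557478 on the plus strand.

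Nptx1, on chromosome 11 from 119538719 to 119547753 on the minus strand, encodes the related pentraxin and was much more abundant. The WT range was 6502 to 8977 normalized counts with a median of 7749, and rNLS8 mice had between 5617 and 7593 with a median of 6619. The groups overlapped, with 4 of 10 rNLS8 mice below every WT mouse. Over both cohorts the difference was -0.22 on the log2 scale (SE 0.052, edgeR adjusted p = 0.00113), or 0.856 of the WT level. It was -0.25 in cohort B alone (adjusted p = 0.0029) and -0.17 in cohort A alone (adjusted p = 0.387 from edgeR), where it did not pass the test.

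Nptxr, the membrane-bound pentraxin receptor on chromosome 15 from 79786351 to 79804766 on the minus strand, also differed strongly between the cohorts. In cohort A the WT mice had 1590, 1499, 1466 and 1717 and the rNLS8 mice 854.1, 774.2 and 1156 normalized counts. In cohort B the WT mice had between 595.8 and 1041 with a median of 807.8, and the rNLS8 mice between 506.1 and 668.6 with a median of 575.7. All rNLS8 mice were thus below the WT mice in cohort A, as for 12.4% of genes tested there, and the genotypes overlapped in cohort B, where the values of both were lower. With both cohorts in the model, rNLS8 differed from WT mice by -0.59 on the log2 scale (SE 0.091, edgeR adjusted p = 1.12e-05). It was -0.73 when cohort A was fitted by itself (adjusted p = 0.00733) and -0.51 for cohort B (edgeR adjusted p = 0.000799). Between the cohorts, the log2 fold change of B against A was -0.83 (adjusted p = 2.96e-06 from edgeR with genotype in the model), and 22.6% of all genes differed between the cohorts by this test.

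The level of Nptxr carries an uncertainty from its annotation. In GENCODE, 890 exon bases of Nptxr are shared with Npcd, a gene model on the same strand that RefSeq lists under the synonym Cbx6-Nptxr, after the neighbouring gene, and Npcd was listed at 0 counts in all 21 mice. Cbx6 itself, which encodes a Polycomb group protein, differed by -0.58 on the log2 scale (SE 0.037, edgeR adjusted p = 1.14e-11), close in size to that of Nptxr. How reads from transcripts that join both genes were assigned is not given in the sources used here.

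Within a mouse, the ratio of 2 genes does not depend on how libraries are scaled. The ratio of Nptx2 to Nptx1 counts was between 0.0912 and 0.174 in WT mice, with a median of 0.124, and between 0.0471 and 0.0893 in rNLS8 mice, with a median of 0.0644. The ranges did not overlap. The ratio of Nptxr to Nptx1 was between 0.0738 and 0.222 in WT and between 0.0714 and 0.152 in rNLS8 mice, and these ranges overlapped. Among the 3 pentraxin genes, Nptx2 was therefore lower relative to Nptx1 in every rNLS8 mouse than in any WT mouse. The normalized counts of Nptx2 alone also separated the genotypes, and how often other pairs of genes do so was not examined.

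Of the granins, Chgb and Scg2 were lower in rNLS8 mice, whereas Scg3 and Chga did not pass the test. Chgb, which encodes chromogranin B, lies on chromosome 2 from 132781278 to 132795079 on the plus strand. In cohort A the WT mice had 7175, 5656, 5087 and 5606 and the rNLS8 mice 3408, 5326 and 4544 normalized counts. In cohort B the WT mice had between 7710 and 9799 with a median of 8602, and the rNLS8 mice between 4974 and 6786 with a median of 6344. All 7 rNLS8 mice of cohort B were below all 7 of its WT mice, as was the case for 8.14% of genes tested in that cohort, and in cohort A 2 of 3 were. Both cohorts together gave -0.53 on the log2 scale (SE 0.079, edgeR adjusted p = 8.02e-06), or 0.695 of the WT level. In cohort B alone it was -0.59 (adjusted p = 6.48e-06), and in cohort A alone it was -0.38 (adjusted p = 0.153 from edgeR). The level was higher in cohort B than in cohort A by a log2 fold change of 0.51 (adjusted p = 0.000212 from edgeR), the opposite of Nptxr.

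Scg2 encodes secretogranin II, the precursor of secretoneurin, and lies on chromosome 1 from 79434669 to 79440120 on the minus strand. WT mice had between 2367 and 5208 normalized counts with a median of 3800, and rNLS8 mice had between 1764 and 3517 with a median of 2692. This gene varied widely within the groups, and 4 of 10 rNLS8 mice were below all WT mice. The log2 difference was -0.51 (SE 0.11, edgeR adjusted p = 0.000727), or 0.700 of the WT level. In cohort A all 3 rNLS8 mice, at 1764, 2209 and 2267, lay below the 4 WT mice, at 4656, 2590, 3041 and 2367, beside 12.4% of all genes tested in this cohort. Fitted separately, cohort A gave -0.58 (adjusted p = 0.0952) and cohort B gave -0.48 (adjusted p = 0.00345, edgeR).

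The highest Scg2 values of both genotypes came from WT mouse 5 with 5208 and rNLS8 mouse 5 with 3517 normalized counts. These were also the mice with the highest sum of the pituitary hormone transcripts Gh, Prl and Pomc, at 122.9 and 318.0 CPM, a unit of counts relative to the TMM-corrected library size, beside at most 20.3 CPM in the other 19 mice. Without both of them the log2 fold change of Scg2 was -0.51 (adjusted p = 0.00122 from edgeR), and 6 of the 10 genes were again lower. Leaving them out was chosen after the data were seen.

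Scg3 encodes secretogranin III, which helps to sort granins into granules, and lies on chromosome 9 from 75643189 to 75684056 on the minus strand. The WT range was 4362 to 6318 normalized counts with a median of 5485, and rNLS8 mice had between 4401 and 5778 with a median of 5431. No rNLS8 mouse lay outside the WT range. The log2 fold change was -0.09 with a 95% confidence interval from -0.20 to 0.03 (adjusted p = 0.214 from edgeR).

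Chga encodes chromogranin A and lies on chromosome 12 from 102554969 to 102565028 on the plus strand. Its estimate had the sign opposite to those of Chgb and Scg2. WT mice had between 2011 and 3009 normalized counts with a median of 2523, and rNLS8 mice between 1988 and 3538 with a median of 2930. In rNLS8 mice 4 of 10 values lay above and 1 lay below the whole WT range. Chga had a log2 fold change of 0.20 with a 95% confidence interval from 0.02 to 0.37, and it did not pass the test after adjustment over all genes (adjusted p = 0.0693 from edgeR). Cohort A by itself gave 0.39 (adjusted p = 0.159) and cohort B gave 0.10 (edgeR adjusted p = 0.323). Over the 21 fits that each omit 1 mouse, the log2 fold change ranged from 0.13, without rNLS8 mouse 9, to 0.24 and the adjusted p-value from 0.0212 to 0.189. The latter fell under 0.05 without rNLS8 mouse 3 (0.0474), mouse 6 (0.0426) or mouse 8 (0.0212).

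The ratio of Chga to Chgb counts was higher in every rNLS8 mouse than in any WT mouse, by a narrow gap. It was between 0.236 and 0.395 in WT mice, with a median of 0.348, and between 0.408 and 0.664 in rNLS8 mice, with a median of 0.523. In cohort A it was between 0.352 and 0.395 in WT and between 0.583 and 0.664 in rNLS8 mice. In cohort B it was between 0.236 and 0.351 in WT and between 0.408 and 0.591 in rNLS8 mice. The ranges did not overlap in either cohort, and how often other pairs of genes separate the genotypes was not examined. The ratio of Scg2 to Scg3 was between 0.443 and 0.899 in WT and between 0.382 and 0.757 in rNLS8 mice, and these ranges overlapped.

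**Figure D3:**
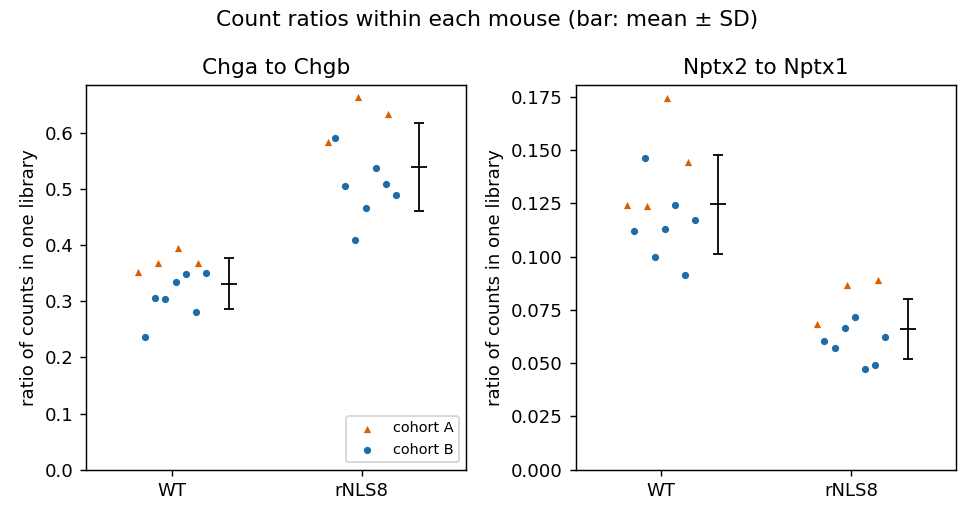
Ratio of the raw counts of Chga to Chgb (left) and of Nptx2 to Nptx1 (right) within each mouse, for WT mice (n = 11) and rNLS8 mice (n = 10). Triangles mark cohort A, circles cohort B, and the bar is the mean ± SD. The rNLS8 mice lie at 0.408 and above for Chga to Chgb, over the highest WT mouse at 0.395, and at 0.0893 and below for Nptx2 to Nptx1, under the lowest WT mouse at 0.0912.

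Pcsk1 encodes the prohormone convertase PC1/3 and lies on chromosome 13 from 75089826 to 75134861 on the plus strand. The WT range was 785.5 to 1117 normalized counts with a median of 866.9, and rNLS8 mice had between 493.9 and 958.3 with a median of 724.0. Of the 10 rNLS8 mice, 7 were below all WT mice, and the 3 at 931.6, 958.3 and 904.5 were above the WT median. Pcsk1 differed by -0.26 on the log2 scale (SE 0.09, edgeR adjusted p = 0.0216), or 0.835 of the WT level, with the highest adjusted p-value of the 6 lower genes. It was -0.33 when cohort A was fitted by itself (adjusted p = 0.276) and -0.22 for cohort B (edgeR adjusted p = 0.0438). The adjusted p-value stayed between 0.00277 and 0.049 with each mouse left out in turn, but it was 0.133 without rNLS8 mice 8 and 9 together, at a log2 fold change of -0.15, and 0.101 with scaling by library size only, at -0.18.

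Bdnf lies on chromosome 2 from 109674700 to 109727007 on the plus strand. WT mice had between 364.7 and 617.5 normalized counts with a median of 473.0, and rNLS8 mice had between 318.0 and 670.7 with a median of 441.1. The groups overlapped almost fully, with 1 rNLS8 mouse below and 1 above the WT range. Bdnf had a log2 fold change of -0.09 with a 95% confidence interval from -0.28 to 0.10 (adjusted p = 0.463 from edgeR). It was 0.03 when cohort A was fitted by itself (adjusted p = 0.942) and -0.14 for cohort B (edgeR adjusted p = 0.279). The interval leaves room for a reduction of modest size but does not include that of Nptx2. Bdnf shares 896 exon bases with the antisense gene model Gm45346, which had no entry of its own in the table, and whether counting used strand is not given in the sources used here.

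Vgf, whose product is cut into several neuropeptides, lies on chromosome 5 from 137026392 to 137033351 on the plus strand. The WT range was 4113 to 6670 normalized counts with a median of 5515, and rNLS8 mice had between 3266 and 7876 with a median of 5343. The rNLS8 mice spread to both sides of the WT range, with 1 mouse below and 2 above it. The log2 fold change was 0.01 with a 95% confidence interval from -0.19 to 0.22 (adjusted p = 0.937 from edgeR), and its sign differed between cohort A alone (0.18) and cohort B alone (-0.06). The coefficient of variation was 12.9% in WT and 24.1% in rNLS8 mice. The ratio of Bdnf to Vgf counts was between 0.0727 and 0.115 in WT and between 0.0664 and 0.0974 in rNLS8 mice.

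A genotype-by-cohort interaction term was used to test for a different genotype effect in the cohorts. None of the 10 genes passed, and their unadjusted p-values were between 0.164 and 0.688. The smallest of them was 0.00905 without rNLS8 mouse 8, with 1 of the 10 genes under 0.05, and 0.0155 without rNLS8 mouse 10, with 2 genes under 0.05, and none of these passed after adjustment over all genes. The same edgeR test called 0 of 19537 genes, with 5.6% at an unadjusted p under 0.05, and DESeq2 called 1 gene, which was not among the 10. In cohort A alone, 2 of the 10 genes, Nptx2 and Nptxr, were called lower, where 4.83% of all genes were. In cohort B alone it was the same 6 genes as over both cohorts, where 19.8% of all genes were lower. The signs of the estimates were 7 negative and 3 positive in cohort A and 9 negative and 1 positive in cohort B.

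To compare levels between genes, normalized counts were divided by the union exon length in kilobases. In WT mice Chgb had the highest mean at 2838 normalized counts per kb, followed by Scg3 at 2021, Vgf at 1831, Scg2 at 1499, Nptx1 at 1478, Chga at 915.4, Nptx2 at 378.2, Nptxr at 211.2, Pcsk1 at 158.5 and Bdnf at 78.5. The ranges of neighbours in this order overlapped except between Nptx1 and Chga, between Chga and Nptx2 and between Pcsk1 and Bdnf. In rNLS8 mice Chgb fell to 1996 per kb, against 1911 for Scg3. In these mice Nptx1, at 1259 per kb, stood above Scg2, at 1075, and their ranges overlapped in both groups. For Bdnf, which has many alternative first exons, division by the union length of 6217 bases understates the level per transcript, and by the length of its longest transcript it was 114.4 per kb in WT mice.

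The other genes of these pathways were examined as lists chosen by function. Of 15 genes of the dense-core vesicle machinery, 5 were lower, 1 was higher and 9 did not pass the test, with a median log2 fold change of -0.13. Cadps2, a priming factor for dense-core vesicle release, had a log2 fold change of -0.83 (adjusted p = 9.44e-09), Syt10, a calcium sensor of vesicle release, one of -0.82 (adjusted p = 8.42e-06 from edgeR), and Scg5, the chaperone of the convertase PC2, one of -0.33 (adjusted p = 5.85e-05 from edgeR). Pcsk1n, which encodes the PC1/3 inhibitor proSAAS, was higher by 0.32 (adjusted p = 7.3e-05 from edgeR), in the direction opposite to Pcsk1.

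Of 13 genes for the processing of BDNF and its receptors, 3 were lower, 1 was higher and 9 did not pass the test, with a median of -0.08. Pcsk5, a proprotein convertase, had a log2 fold change of -0.51 (adjusted p = 5.49e-06 from edgeR), and Sort1, which sorts the BDNF precursor, had -0.26 (adjusted p = 0.000484 from edgeR). Plat, the tissue plasminogen activator, was higher by 0.23 (adjusted p = 0.000453 from edgeR). The receptor gene Ntrk2 had -0.03 (adjusted p = 0.718 from edgeR).

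Of 13 genes listed as partners of the pentraxins, among them AMPA receptor subunits, their auxiliary proteins and other synaptic and secreted proteins, 5 were lower, 1 was higher and 7 did not pass the test, with a median of -0.15. The AMPA receptor subunit gene Gria3 had a log2 fold change of -0.68 (adjusted p = 7.91e-10 from edgeR). Olfm3, an olfactomedin of the same complexes, had -0.66 (adjusted p = 1.1e-07), and the auxiliary subunit gene Cacng8 had -0.32 (adjusted p = 0.000341 from edgeR). Cacng2, which encodes the auxiliary subunit stargazin, was higher by 0.16 (adjusted p = 0.0383 from edgeR).

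Of the 5 lists, those for activity-dependent transcription and for neuropeptide precursors had the lowest medians. Of 21 genes of activity-dependent transcription, 12 were lower, 2 were higher and 7 did not pass the test, with a median of -0.41. The immediate early genes Egr2, Arc and Egr1 had log2 fold changes of -1.91 (adjusted p = 0.000135), -1.57 (adjusted p = 0.000147) and -1.10 (adjusted p = 6.41e-06 from edgeR). Crtc1, a CREB coactivator, was higher by 0.38 (adjusted p = 2.04e-07 from edgeR) and Rest, a repressor of neuronal genes, by 0.27 (adjusted p = 0.0281 from edgeR). Of 12 secreted neuropeptide precursors, 10 were lower, 0 were higher and 2 did not pass the test, with a median of -0.50. Nts, Cartpt and Penk, the precursors of neurotensin, CART peptide and enkephalins, had log2 fold changes of -1.23 (adjusted p = 0.000737), -1.09 (adjusted p = 0.000452) and -1.08 (adjusted p = 0.00439 from edgeR).

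**Figure D4:**
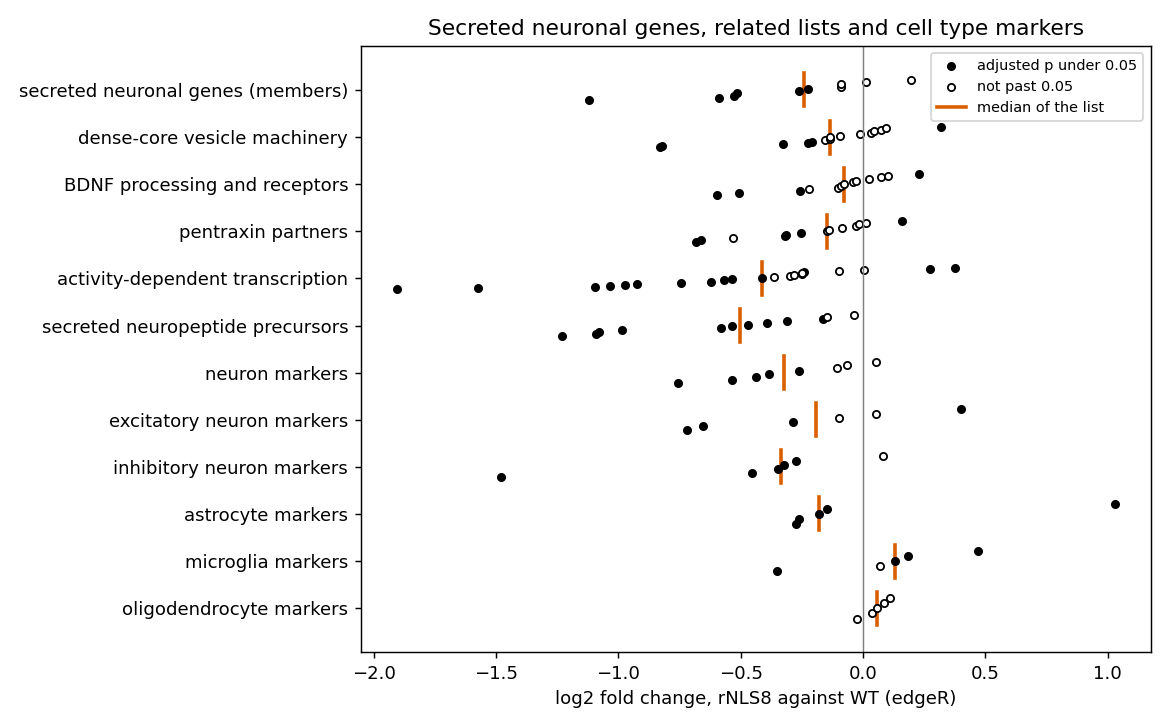
Log2 fold change between rNLS8 and WT mice (edgeR, both cohorts) for the 10 secreted neuronal genes, related gene lists and cell type markers. Each point is 1 gene, filled where the adjusted p-value was under 0.05, and the bar is the median of the list. The medians lie at -0.24 for the 10 genes, -0.41 for activity-dependent transcription, -0.50 for neuropeptide precursors and -0.32 for neuron markers.

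Some markers of cell types also differed between the genotypes. Of 8 pan-neuronal markers, 5 were lower and 0 higher, with a median of -0.32, and their summed level was between 4036 and 5222 CPM in rNLS8 mice and between 5544 and 7133 CPM in WT mice, without overlap. Snap25, Syt1 and Map2 had log2 fold changes of -0.76, -0.54 and -0.44, each past the test, whereas Rbfox3 (-0.10), Tubb3 (-0.07) and Eno2 (0.05) did not pass. With WT means of 47255, 31436 and 26128 normalized counts, Snap25, Syt1 and Map2 were the most abundant of the 8. They therefore weighed most in the sum. How often sums of other genes separate the genotypes was not examined. Of 6 inhibitory neuron markers, 5 were lower, among them Lamp5 (-1.48), and their sum was between 395.5 and 704.6 CPM in rNLS8 and between 608.2 and 1047 CPM in WT mice. Of 6 excitatory neuron markers, 3 were lower (Nrgn at -0.72, Camk2a at -0.65 and Neurod6 at -0.29), with sums between 4034 and 6345 CPM and between 5638 and 8547 CPM. Slc17a7 had 0.05 and did not pass. Of 5 markers of deep layer projection neurons, 4 were lower, among them Crym (-0.66), Bcl11b (-0.43) and Foxp2 (-0.39), whereas Fezf2 (-0.02) did not pass. The median of these markers was -0.39, with sums between 141.0 and 276.6 CPM in rNLS8 and between 221.0 and 330.4 CPM in WT mice. The part of these shifts in the values of the 10 genes was not tested.

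Among glia, 1 of 5 astrocyte markers, Gfap, was higher (1.03) and 4 were lower, 3 of 5 microglia markers were higher and 1 was lower, and 0 of 5 oligodendrocyte markers passed the test. The summed hippocampal markers, 1 of 4 of which was lower, were between 79.1 and 112.7 CPM in rNLS8 and between 130.2 and 212.7 CPM in WT mice. Most of this sum came from Wfs1 (log2 fold change -0.83), and the other 3 hippocampal markers did not pass the test. The summed striatal markers, 2 of 5 of which were lower, were between 181.1 and 842.3 CPM in rNLS8 and between 208.4 and 1077 CPM in WT mice. The rNLS8 mouse 8, which had the lowest Chgb (3408), Scg2 (1764) and Chga (1988) of its group, also had the lowest sum of neuron markers, at 4036 CPM. The part of region and cell type in these values was not tested.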

How the data were processed

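Bulk RNAseq was done on mRNA of tissue labelled neocortex from 11 WT and 10 rNLS8 mice, at a depth of 20700912 to 22263809 counts per mouse. Per gene symbol, the authors deposited raw counts that were whole numbers and not normalized. The submitters' processing notes name HISAT2, Bowtie2 and RSEM and the build mm10, without their roles.

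Genes were filtered with edgeR's filterByExpr (minimum count 10, minimum total 15), normalized by TMM and tested with the quasi-likelihood test of edgeR 4.0.16 in R 4.3.3 with cohort and genotype in the model. P-values were two-sided and adjusted by Benjamini-Hochberg over all 19052 genes tested, and called below 0.05. The standard error is the absolute log2 fold change over the root of F. The procedure was tested on simulated counts. Gene positions and exon lengths are from GENCODE M21 (GRCm38), promoters from RefSeq (GRCm38.p6).

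The 10 genes, the lists and the tests were chosen with earlier results of these data known. From each list, up to 3 genes past the threshold in each direction with the largest absolute log2 fold change and at least 50 normalized counts on average were named. Ntrk2, Tubb3, Rbfox3, Eno2, Slc17a7, Fezf2, Cbx6 and Tardbp were named for their role. Alternatives were DESeq2 1.42.0, limma 3.58.1 (voom), no cohort term, other scalings, other filters, each cohort alone and leaving out mice. The result of 1 gene of the excitatory neuron markers is not reported here.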

Additional observations from a re-analysis of the deposited data

Results flagged for a closer look

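Single mice that stood apart were looked for with Dixon's test in 40 groups of values, which were for each of the 10 genes the WT mice of cohort A, the WT mice of cohort B, the rNLS8 mice of cohort B and all 10 rNLS8 mice. The last of these share mice with the rNLS8 group of cohort B, and the 3 rNLS8 mice of cohort A were too few to be tested alone. Chance marks about 1 in 20 such groups, or 2 of 40, and 3 were marked. In rNLS8 mice of cohort B, mouse 1 had the lowest Scg3 at 4401 normalized counts, with the next at 5214, a gap of 0.615 of the whole range. In WT mice of cohort A, mouse 8 had the highest Chga at 2523, with the next at 2079, a gap of 0.867 of the range. In WT mice of cohort B, mouse 1 had the highest Pcsk1 at 1117, with the next at 931.3, a gap of 0.627 of the range. Leaving out any of these 3 mice changed no call of these genes. The causes were not tested.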

How the results depend on the processing

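The number of the 10 genes lower in rNLS8 mice was 6 with each mouse left out in turn and under every other alternative run, with 3 exceptions. It was 5, without Pcsk1, with scaling by total counts alone and without rNLS8 mice 8 and 9 together, and 2 in cohort A alone, where 2195 genes were called in all, 1298 higher and 897 lower. In that cohort alone, 2 genes of the dense-core vesicle list, 1 of the BDNF list, 2 of the pentraxin partners and 4 of the neuropeptide precursors were called. With 3 against 4 mice, the lower number of calls there also reflects fewer samples. The number of genes called higher was 1, Chga, without TMM, by total counts alone (0.27 on the log2 scale, edgeR adjusted p = 0.00945), and between 0 and 1 with each mouse left out. On the log2 scale, Bdnf turned to 0.0267 in cohort A alone. Vgf turned to -0.0636 in cohort B alone and to -0.0076 with limma voom, and was between -0.0449 and 0.0695 with each mouse left out. The causes were not tested. No paired analysis was possible because the labels give mouse numbers that are not shared between the groups. The lowest value of any of the 10 genes in a mouse was 291.2 normalized counts, for Nptx2.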
